A study of Mus musculus with 4 samples.

Results

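The genes of 9 secreted plasma proteins made by visceral endoderm and liver were followed in F9 cells carrying a short hairpin RNA against Phf19. They are Afp, Ttr, Apoa1, Apoa2, Apob, Apoc2, Apoe, Rbp4 and Fetub. They were taken as every probe set that GEO's annotation of the array pairs with exactly 1 of these symbols, which gave 20 of 45037 tested probe sets, or 9 of 18193 genes. F9 is a mouse embryonal carcinoma line, that is, a culture of tumour cells that resemble the early embryo and can form endoderm. Total RNA of 2 shPhf19 cultures was set against that of 2 shVector cultures on Affymetrix Mouse Genome 430 2.0 arrays. Cells of both groups carried the pLKO.1 lentiviral vector and had been selected with puromycin as stable cells; shPhf19 cells carried a short hairpin RNA (shRNA) against Phf19, and shVector cells the vector control. The labels name the arrays of a group as biological replicates, but no source used here gives the hairpin sequence or the number of separate infections. The p-values therefore cover array-to-array spread, which may be partly technical.

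Visceral endoderm is the epithelium that wraps the early mouse embryo, takes up maternal nutrients and secretes serum proteins before the liver does. Alpha-fetoprotein (Afp), transthyretin (Ttr, a carrier of thyroxine and of retinol-binding protein), Rbp4 (the plasma retinol carrier) and the apolipoproteins are its classical products, many of which adult hepatocytes also make. Apob is the structural protein of large lipoprotein particles, Apoa1 and Apoa2 are proteins of high-density lipoprotein, Apoc2 activates lipoprotein lipase, and Apoe is a ligand of lipoprotein receptors that many cell types make. Fetub encodes fetuin-B, a plasma protease inhibitor that keeps the egg coat from hardening before fertilisation. Phf19 is a Polycomb-like partner of Polycomb repressive complex 2 (PRC2), which places a silencing methyl mark on histone H3 and is drawn to CpG-rich promoters.

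The targeted gene, Phf19, has 2 probe sets and fell on 1 of them. A probe set is the group of array probes that measures 1 transcript, its values are given on the log2 scale, and a call is a limma p under 0.05 after Benjamini-Hochberg adjustment over all probe sets. On 1427920_at the arrays read 5.08 and 5.17 in shPhf19 against 6.07 and 6.14 in shVector cells (limma adjusted p = 0.0108), and 1431857_at read 6.05 and 6.26 in shPhf19 against 6.32 and 6.11 in shVector cells (limma adjusted p = 0.928). The brighter of the 2 is 1431857_at, so in counts by a gene's brightest probe set Phf19 did not pass. Array medians were 5.75 to 5.76. The calls of members and of other genes were lost when any 1 of the 4 arrays was left out. Such a fit has 1 array in a group and fewer residual degrees of freedom, so the loss does not point to a single array.

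Because CpG content bears on PRC2, the 300 bases around the start sites were read from RefSeq (build GRCm38.p6, 250 bases before and 50 after each start, both strands searched). A promoter was listed for 8 of the 9 genes, with 13 start sites, and Ttr was not matched. The 3 promoters shown belong to Fetub, whose level changed most, to Afp, the classical visceral endoderm product, and to Apoe, the member with the clearest upward shift. Capitals mark matches to 6 motifs. The core promoter motif was searched as TATAAA. The motif of Gata factors was taken as AGATAA and that of Foxa factors as TGTTTAC. For Hnf1 a single arm of the palindrome was used, GTTAAT, and likewise for nuclear receptors, AGGTCA. The motif of the C/EBP family was TTGCNNAA.
Fetub, upstream start, chr16:22918132-22918431, plus strand: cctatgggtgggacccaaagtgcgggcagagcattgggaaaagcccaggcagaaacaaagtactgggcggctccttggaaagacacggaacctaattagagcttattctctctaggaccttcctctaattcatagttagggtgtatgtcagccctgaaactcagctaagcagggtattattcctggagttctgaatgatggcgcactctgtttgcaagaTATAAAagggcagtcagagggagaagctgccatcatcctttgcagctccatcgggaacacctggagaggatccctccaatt
Afp, chr5:90490464-90490763, plus strand: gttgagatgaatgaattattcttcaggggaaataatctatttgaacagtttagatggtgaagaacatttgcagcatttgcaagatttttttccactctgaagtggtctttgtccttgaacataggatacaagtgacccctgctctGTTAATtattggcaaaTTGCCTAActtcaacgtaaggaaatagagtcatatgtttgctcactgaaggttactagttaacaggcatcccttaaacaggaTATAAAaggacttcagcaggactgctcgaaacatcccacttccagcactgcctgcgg
Apoe, farthest upstream of its 3 starts, chr7:19699139-19699438, minus strand: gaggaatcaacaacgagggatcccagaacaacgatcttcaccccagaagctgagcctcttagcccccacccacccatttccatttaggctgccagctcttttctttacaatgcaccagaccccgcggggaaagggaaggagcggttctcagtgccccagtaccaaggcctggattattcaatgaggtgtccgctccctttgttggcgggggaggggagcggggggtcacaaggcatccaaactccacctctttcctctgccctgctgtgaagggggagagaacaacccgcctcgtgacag

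The printed window of Fetub holds the core promoter motif, as do 13.6% of all 32851 promoters in the table. That of Afp holds the core promoter motif, the Hnf1 arm (7.1% of all promoters) and the C/EBP motif (10.8%). No searched motif was found in the printed window of Apoe, and no matches overlapped in the 3 printed windows. Among windows not printed, the downstream Fetub start held the Foxa motif and the middle Apoe start the core promoter motif. The farthest downstream Apoe start held the Hnf1 arm and the Foxa motif. The Gata motif (11.2% of all promoters) was not found in any of the 13 member windows, while the Foxa motif (3.65%) and the nuclear receptor arm (16.3%) occurred in others of them. CpG dinucleotides numbered 5 in the printed Fetub window, 3 in that of Afp and 10 in that of Apoe. The downstream Fetub start had 10 and the other Apoe starts 12 and 11, against a median of 7 over all promoters. The highest count was 40, at the downstream start of Rbp4, and only 3.91% of promoters in the table hold as many. These matches describe letters and not occupied sites.

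Among these plasma protein genes Fetub alone changed, and it fell. Its level in shPhf19 cells was 37.6% of that in shVector cells. The other 8 genes did not pass the test, Apoe lay above its control values by 1.32-fold without passing, and the remaining 7 lay within 0.2 log2 units of no change by their representative probe sets. A gene is represented here by its brightest probe set. In the fit over all probe sets 1.41% were called in either direction, 0.582% lower and 0.83% higher. The members' count was 1 of 20 probe sets lower and 0 higher (limma). At an unadjusted p under 0.05, 2 of the 20 were lower and 1 higher, against 2750 and 2958 of all 45037 probe sets. Over genes by representative probe set 0.863% were called lower, 1.15% higher and 2.02% in either direction, against 1 of the 9 lower.

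The Fetub probe set 1449555_a_at read 6.83 and 6.57 in the shPhf19 arrays and 8.31 and 7.90 in the shVector arrays, on the log2 scale. Both shPhf19 values lie below both shVector values, and the gap between the groups is wider than the difference between the arrays of either one. Fetub averaged 6.70 ± 0.18 in shPhf19 cells and 8.11 ± 0.29 in shVector cells (SD, n = 2 each). The change was -1.41 ± 0.16 (SE; limma adjusted p = 0.0153), a 2.66-fold fall with a 95% interval of 29.0% to 48.8% of the shVector level. The call was lost when any 1 of the 4 arrays was left out, with adjusted p = 0.692 without shPhf19 replicate 1, 0.608 without shPhf19 replicate 2, 0.122 without shVector replicate 1 and 0.127 without shVector replicate 2, although the change stayed between -1.61 and -1.21. In a bulk culture, fewer cells that express a gene and less RNA per cell cannot be told apart. Fetub has 1 probe set on the array, so no second probe set bears on the fall.

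**Figure D1:**
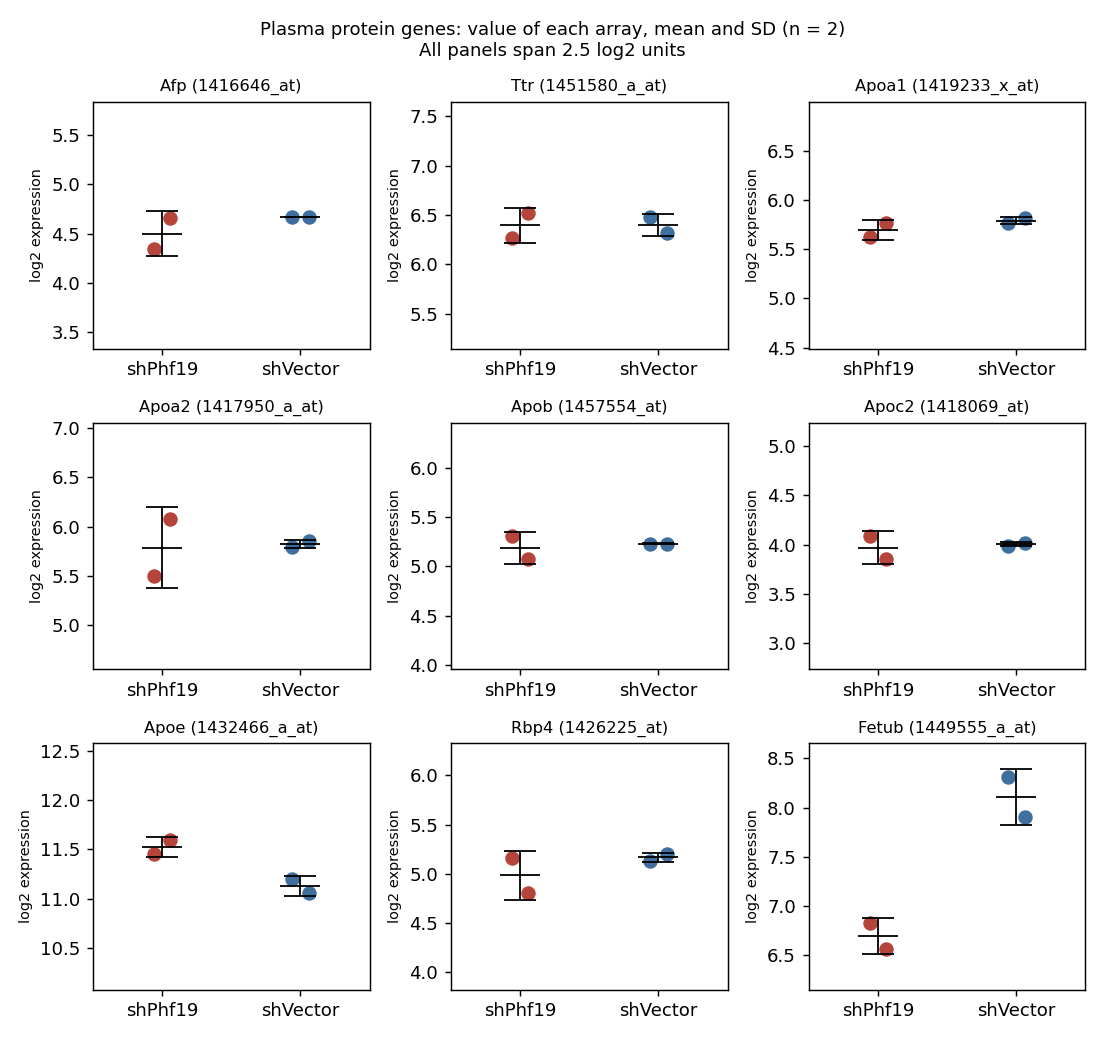
Log2 expression of each of the 9 genes by its representative probe set, with shPhf19 arrays in red and shVector arrays in blue; points are arrays, the bar is the mean and the whiskers are the SD (n = 2), and every panel spans the same log2 range. Fetub is the gene whose groups stand farthest apart (means 6.70 in shPhf19 and 8.11 in shVector cells), and Apoe is the one whose shPhf19 arrays both lie above its shVector arrays.

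Apoe moved the other way without passing the test. Its probe set 1432466_a_at read 11.45 and 11.60 in shPhf19 cells, against 11.20 and 11.06 in shVector cells. The groups do not overlap, and each group's arrays lie within 0.2 log2 units of each other. The change was 0.40 ± 0.08 (SE; limma adjusted p = 0.0784), with a 95% interval from 0.21 to 0.58. Apoe has 1 probe set, and it passed when 1 mean per gene was tested in place of all probe sets (limma adjusted p = 0.0416). That fit adjusts over fewer features, and its unadjusted p was also lower (limma, 0.0011 against 0.0016). What made Apoe pass was not tested. Macrophages are a known source of Apoe. Of 15 macrophage markers 0 were called (limma, and 0 at an unadjusted p under 0.05), beside 2.02% of all genes called. Of the 15, 12 lay below the array median on all 4 arrays, where values may be background. Summed log2 values of the 15 were 68.13 to 68.16 in shPhf19 and 68.06 to 68.35 in shVector arrays. A part of macrophages in the shift of Apoe was not tested.

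Afp, the serum protein that most often marks visceral endoderm, gave no called difference on any of its 5 probe sets. The brightest, 1416646_at, read 4.34 and 4.66 in shPhf19 cells and 4.67 in each shVector array. Thus 1 shPhf19 array was low and the other lay close to the shVector values. The change was -0.17 ± 0.13 (SE; limma adjusted p = 0.683), and its interval runs from -0.47 to 0.13. The 5 probe sets of Afp changed by -0.17 to 0.05, and all of them were below the array median on all 4 arrays. With no detection calls in the table, such values may be background, so a small change of a little-expressed gene could not have been seen.

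Ttr and Rbp4, which travel together in plasma, did not pass either. The brightest Ttr probe set, 1451580_a_at, read 6.27 and 6.52 in shPhf19 cells against 6.48 and 6.32 in shVector cells. These values interleave, and the change was -0.001 ± 0.12 (SE; limma adjusted p = 1). Its 95% interval leaves room for a level between 81.9% and 122% of the shVector level. The other 3 Ttr probe sets ran from -0.15 to 0.08. All 3 were dimmer and below the array median on every array, where values may be background. Rbp4 read 5.16 and 4.81 in shPhf19 cells and 5.13 and 5.20 in shVector cells, so that the first shPhf19 array fell between the shVector values. Its change was -0.18 ± 0.14 (SE; limma adjusted p = 0.679).

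None of the other apolipoprotein members was called. Apoa1 has 4 probe sets, all with changes below 0, from -0.31 to -0.05. The brightest of them, 1419233_x_at, read 5.62 and 5.77 in shPhf19 cells and 5.76 and 5.81 in shVector cells, groups that overlap. The probe set 1438840_x_at gave the largest of these shifts, at 4.79 and 4.49 in shPhf19 against 4.97 and 4.93 in shVector cells, with limma adjusted p = 0.377 (0.044 before adjustment). Names ending in _x_at or _s_at, as for 8 of the 20 probe sets, mark probes that can also hybridise to other transcripts.

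Apoa2, the partner of Apoa1 in high-density lipoprotein, had the widest spread between the shPhf19 arrays. It read 5.49 and 6.08 in shPhf19 cells and 5.79 and 5.85 in shVector cells, so that the shVector values lie between the shPhf19 ones. The change was -0.04 ± 0.19 (SE; limma adjusted p = 0.975). For Apob the brighter probe set, 1457554_at, read 5.30 and 5.07 in shPhf19 cells and 5.22 and 5.23 in shVector cells. Its second probe set, 1455593_at, read 3.95 and 3.79 in shPhf19 cells against 3.74 and 3.79 in shVector cells, and the changes were -0.04 ± 0.11 and 0.11 ± 0.10 (SE). Apoc2 read 4.09 and 3.85 in shPhf19 cells and 3.99 and 4.02 in shVector cells, again on both sides of the control values.

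**Figure D2:**
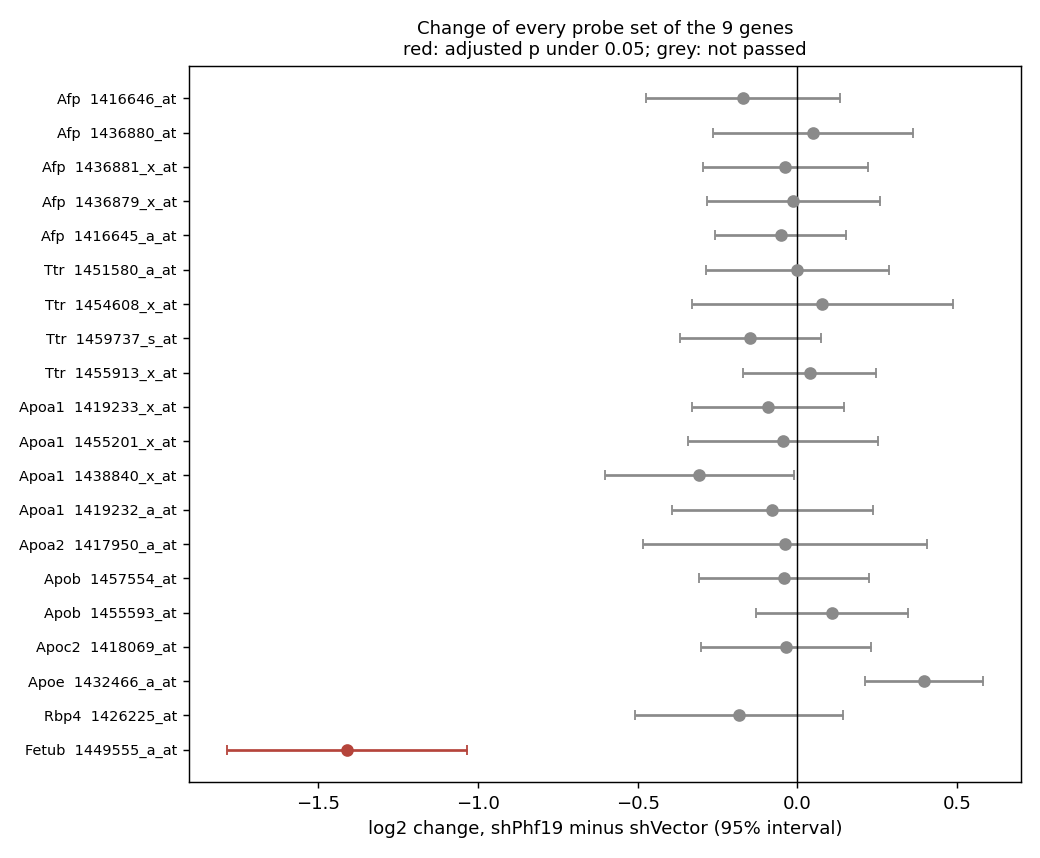
Change of all 20 probe sets of the 9 genes, shPhf19 minus shVector on the log2 scale, with limma's 95% interval as whiskers; red marks an adjusted p under 0.05. Fetub lies at -1.41 and Apoe at 0.40, and the other 18 probe sets lie between -0.31 and 0.11.

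Over the 18 probe sets of genes other than Fetub and Apoe, the 95% intervals reached from -0.60 to 0.49 at their widest, and the adjusted p-values were between 0.377 and 1. Groups did not overlap for 6 of the 20 member probe sets, or 30.0%, against 40.5% of all probe sets. The median change of the 9 genes was -0.04, beside -0.003 over all 18193 genes. Of the 9, 8 lay below 0, as did 9283 of the 18193, and the difference was not tested. Of the 20 probe sets, 15 were below the array median on all 4 arrays and 3, those of Apoe, Fetub and the brightest of Ttr, were at or above it on all 4. Probe sets differ in how well they hybridise, so that this does not order the genes by abundance.

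The genes whose 4 array values were most like those of Fetub were also called lower. Likeness was the root mean square difference of log2 values, each gene centred on its own mean over the 4 arrays, among 18193 genes. Msln, which encodes mesothelin, was closest at 0.08, reading 6.08 and 5.85 in shPhf19 cells against 7.64 and 7.36 in shVector cells. Pof1b followed at 0.16, Serpinb6c at 0.18, Gstm2, a glutathione transferase gene, at 0.19 and Serpinf1, a secreted serpin gene, at 0.21. Over 4 arrays this measure mostly selects genes with a fall of like size, from 2.20-fold for Pof1b to 3.39-fold for Serpinf1.

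Several members lie in gene clusters, and their neighbours were read in the same fit, taking the 3 nearest protein-coding genes on each side in RefSeq's order. The fall of Fetub was not accompanied by a called change of its neighbours on chromosome 16. Ahsg, which encodes the related fetuin-A, read 5.53 and 5.28 in shPhf19 cells and 5.41 and 5.14 in shVector cells (change 0.12 ± 0.14, SE). Hrg, the gene of histidine-rich glycoprotein on the other side, changed by -0.08 ± 0.10, and Kng1, the kininogen gene, by 0.02 ± 0.09. The 95% intervals of these 3 neighbours lay between -0.32 and 0.45, away from the interval of Fetub (-1.78 to -1.03). All 3 read below the median on every array, where values may be background, so a fall of these genes might not have shown. The brighter neighbours Dnajb11 and Tbccd1, on the side of Ahsg, changed by 0.01 ± 0.06 and 0.12 ± 0.10 (SE).

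Apoe and its neighbour Apoc1 on chromosome 7 shifted in opposite directions, neither of them passing. Apoc1, a small apolipoprotein that inhibits lipid-modifying enzymes, read 8.69 and 8.98 in shPhf19 cells and 9.35 and 9.27 in shVector cells. The groups do not overlap, with a change of -0.47 ± 0.11 (SE; limma adjusted p = 0.125). On its other side Apoe is followed by Tomm40, at 0.07 ± 0.06. Alb, the albumin gene next to Afp on chromosome 5, stood at 0.08 ± 0.10, and Apoc3, Apoa4 and Apoa5, which follow Apoa1 on chromosome 9, at 0.05 ± 0.10, 0.13 ± 0.12 and 0.21 ± 0.11. Of 45 distinct measured neighbours outside the member list, 1 was called lower and 0 higher, against 2.02% of all genes in either direction. That 1 was Myof, a membrane repair gene near Rbp4 on chromosome 19, at 6.26 and 6.20 in shPhf19 cells and 6.82 and 7.04 in shVector cells (limma adjusted p = 0.0387).

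**Figure D3:**
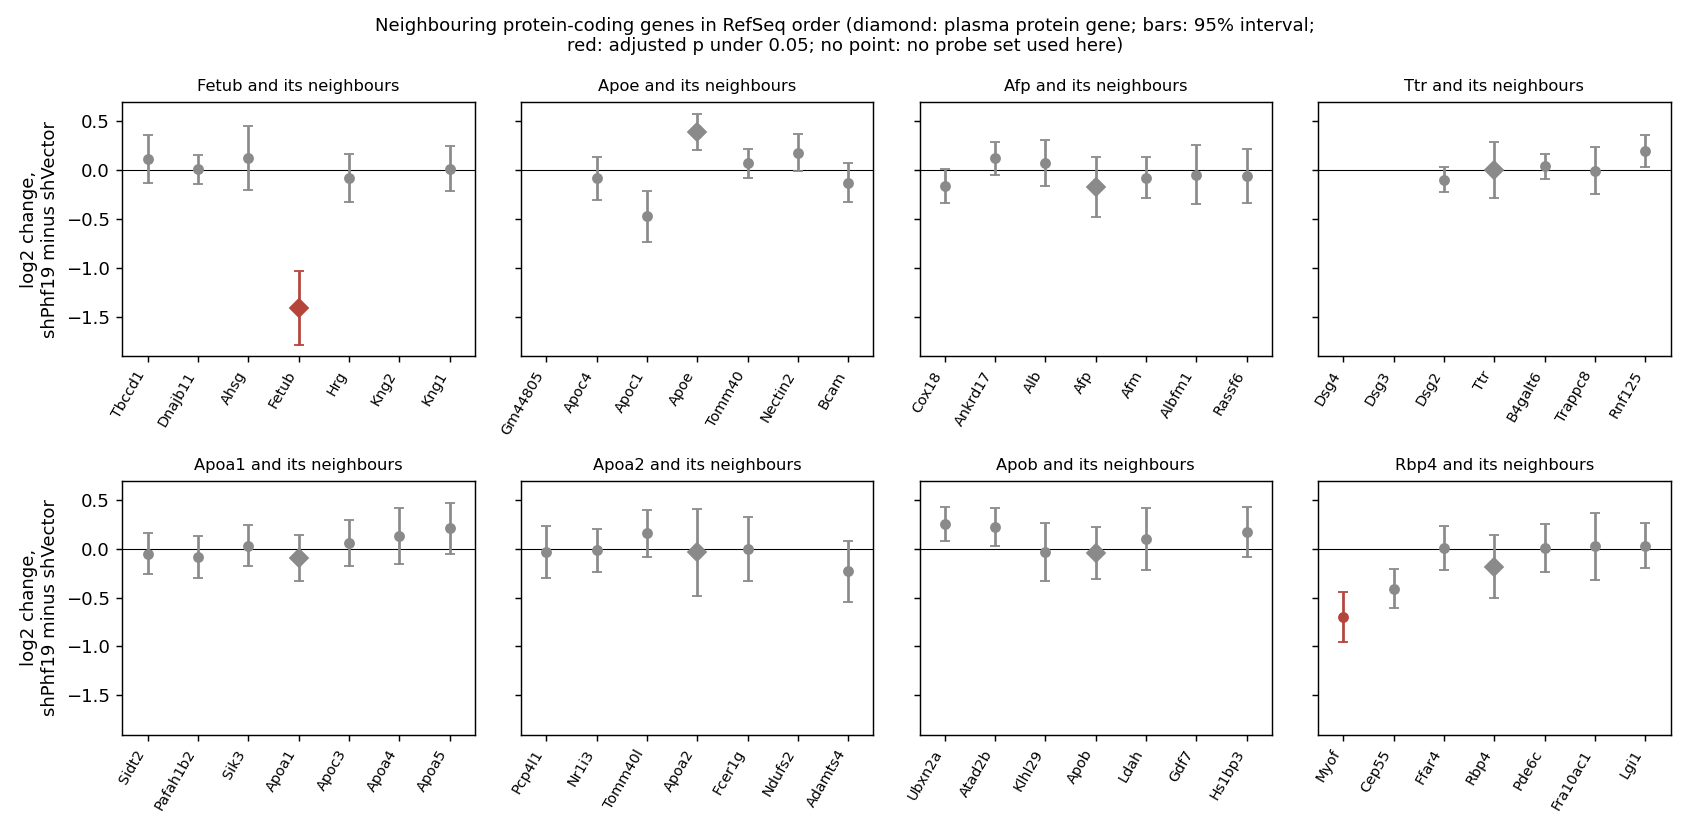
Change of the 3 protein-coding neighbours on each side of 8 of the genes, in RefSeq order and not to distance, shPhf19 minus shVector on the log2 scale with 95% intervals; diamonds are the plasma protein genes and red marks an adjusted p under 0.05. Fetub at -1.41 stands between neighbours near 0, and Apoe at 0.40 stands beside Apoc1 at -0.47; Apoc2 shares the chromosome 7 cluster and has no panel of its own.

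No gene of the wider set of secreted plasma proteins passed the test. Of 37 measured members of that list (7 not analysed here), 0 were called (limma), with a median change of 0.02. Over all genes 2.02% were called in either direction. At an unadjusted p under 0.05, 3 of the list were higher and 0 lower, against 2958 and 2750 of all 45037 probe sets. The list counts genes by their representative probe set, so this background is in another unit. The smallest p-values belonged to A2m, a broad protease inhibitor gene, at 9.36 and 9.45 in shPhf19 against 9.09 and 8.75 in shVector cells (adjusted p = 0.149), and to Igfbp2, an IGF-binding protein gene, at 0.19 ± 0.06 (SE; adjusted p = 0.228). Among 18 other apolipoprotein genes 0 were called (limma; 1 higher and 2 lower at an unadjusted p under 0.05; median -0.03), with Apoc1 and Apol8 (0.43 ± 0.10, adjusted p = 0.13) nearest to the threshold. Genes of lipoprotein assembly and exchange numbered 21, and again 0 were called (limma; 1 higher and 2 lower at an unadjusted p under 0.05; median -0.05). Dgat2, which makes triglyceride, stood there at -0.23 ± 0.08 and the lipid droplet gene Cideb at 0.27 ± 0.10. Mttp, which loads lipid onto Apob and was named after its values were seen, read 5.95 and 6.26 in shPhf19 cells and 6.13 and 6.21 in shVector cells.

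Of 22 carrier and receptor genes for such proteins, 2 rose, 1 fell and 19 did not pass, with a median change of -0.05, beside 2.02% of all genes called in either direction. Cubn, the receptor that binds Apoa1 and many vitamin carriers, read 7.36 and 7.33 in shPhf19 cells and 5.03 and 5.07 in shVector cells. Dab2, an adaptor of endocytic receptors, read 6.83 and 6.54 in shPhf19 cells against 5.25 and 5.33 in shVector cells, although its other 3 probe sets did not pass. Vldlr, a receptor of Apoe-bearing particles, fell: it averaged 10.03 ± 0.04 in shPhf19 cells and 10.52 ± 0.02 in shVector cells (SD, n = 2 each), and 4 of its 6 probe sets passed. Lrp2, the megalin gene and partner of Cubn, was named afterwards and did not pass, at 0.75 ± 0.14 (SE; limma adjusted p = 0.0664).

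Of 33 transcription factor genes of visceral endoderm and liver, 3 rose, 1 fell and 29 did not pass (median 0.07). Over all genes 2.02% were called in either direction. Zfhx3, which encodes the AT-motif binding factor known as a repressor of the AFP enhancer in human hepatoma cells, read 9.55 and 9.63 in shPhf19 cells and 8.66 and 8.53 in shVector cells. This was a 1.99-fold rise (limma adjusted p = 0.00782), and 4 of its 6 probe sets passed, all 6 with a change above 0. Otx2, a factor of anterior visceral endoderm and neural tissue, rose 2.65-fold, and Gata6, a factor of primitive endoderm, rose 2.28-fold by 1 of its 3 probe sets. Sox17, an endoderm factor named after its values were seen, counts as not passing by its brighter probe set (0.27 ± 0.11, SE; limma adjusted p = 0.371), but its other one, 1429177_x_at, rose by 1.41 ± 0.12 (SE; limma adjusted p = 0.00875). Cebpb, a factor that binds C/EBP sites, fell 1.59-fold with both of its probe sets passing. Hnf4a, a main activator of apolipoprotein genes that was named after its values were seen, read 6.08 and 6.06 in shPhf19 cells and 6.12 and 5.97 in shVector cells. Zbtb20, a repressor of Afp in mouse liver and also named afterwards, passed on none of its 9 probe sets, whose changes ran from -0.15 to 0.32.

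Other visceral endoderm markers held called genes in both directions. Of 25 measured, 4 rose, 1 fell and 20 did not pass (median 0.08), while of the 9 plasma protein genes 1 fell. Over all genes 2.02% were called in either direction. The differences between these shares were not tested, and the lists were chosen with earlier results of these data known. Cubn and Dab2 are also in the carrier and receptor list. Besides them, Spink1, a secreted trypsin inhibitor gene, read 7.01 and 6.99 in shPhf19 cells and 6.01 and 6.31 in shVector cells. Cited1, a transcriptional coactivator gene, read 5.28 and 5.52 in shPhf19 cells against 4.72 and 4.47 in shVector cells (limma adjusted p = 0.0486). The simple-epithelium keratin gene Krt8 fell 2.10-fold, with all of its 3 probe sets passing. Of 23 parietal endoderm markers 7 rose, 1 fell and 15 did not pass (median 0.01), beside the same 2.02% of all genes. The 4 largest rises were those of Gata6, Pdgfra (2.26-fold, by 1 of its 3 probe sets), Col4a1 (2.06-fold) and Col4a2 (2.04-fold). Nid1 fell 1.42-fold, with 2 of its 3 probe sets passing.

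**Figure D4:**
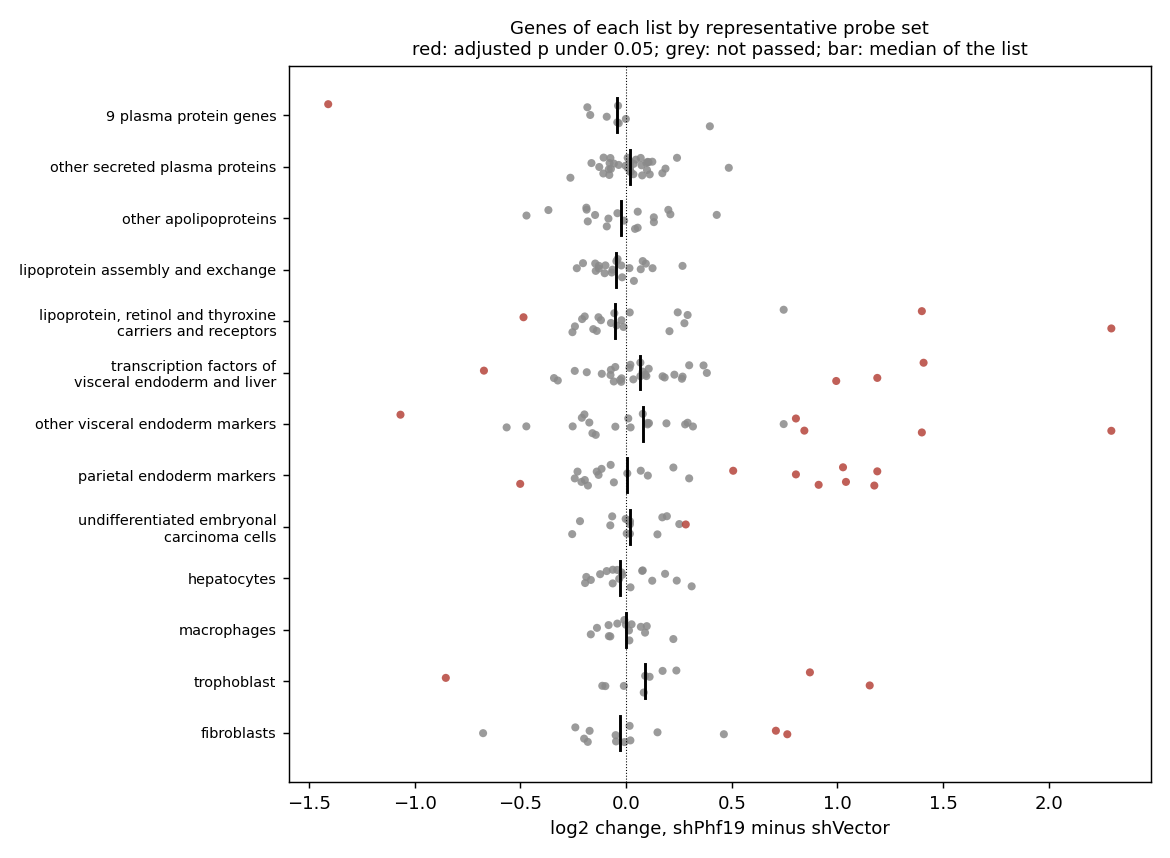
Changes of the genes of each list by representative probe set, shPhf19 minus shVector on the log2 scale; each point is a gene, red marks an adjusted p under 0.05 and the black bar is the list's median. Among the 9 plasma protein genes, the other plasma proteins and the other apolipoproteins only Fetub, at -1.41, is called, with A2m at 0.49, Apoc1 at -0.47, Apol8 at 0.43 and Apoe at 0.40 not passing, whereas the carrier and receptor, transcription factor and endoderm marker lists reach from -1.07 to 2.30.

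The labelled cell type was checked on its own markers. Of 15 genes of undifferentiated embryonal carcinoma cells all lay at or above the array median on all 4 arrays. Of these 1, Dnmt3b, was called, a rise of 1.22-fold by 1 of its 2 probe sets, beside 2.02% of all genes called. Hepatocyte markers numbered 18, of which 17 were below the array median on all 4 arrays and 0 were called (limma; 1 higher and 0 lower at an unadjusted p under 0.05). Their summed log2 values were 80.53 to 80.59 in shPhf19 and 80.26 to 80.80 in shVector arrays. The smallest p-values of that list were those of Fah (0.31 ± 0.12, SE) and Slc10a1 (-0.19 ± 0.09), and in the macrophage list those of Mrc1 (0.22 ± 0.12) and C1qb (-0.17 ± 0.09).

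Trophoblast and fibroblast markers moved in part between the same groups as Fetub. Over all genes 2.02% were called in either direction. Of 11 trophoblast markers Cdkn1c (2.22-fold) and Peg10 (1.83-fold) rose, Tfap2c fell 1.81-fold and 8 did not pass (median 0.09). Tfap2c passed on 2 of its 3 probe sets. Summed log2 values of this list, which include those called genes, were 60.23 to 60.63 in shPhf19 and 58.78 to 58.80 in shVector arrays. Of 14 fibroblast markers Loxl1 (1.70-fold) and Mmp2 (1.63-fold) rose and 12 did not pass (median -0.03, with 8 below 0 and 6 above). Summed log2 values of the list, which include those 2 rises, were 69.74 to 69.92 in shPhf19 and 69.25 to 69.32 in shVector arrays. The second probe set of Loxl1 did not pass, with a log2 change of 0.014. Their part in the change of Fetub was not tested.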

How the data were processed

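Total RNA had been purified on Qiagen RNeasy columns and biotin-labelled, per the labels' protocols. The authors' deposited values were taken as log2 expression: the scale is not stated and was read from their range (2.31 to 14.7). Near-equal array medians show that the arrays had been normalized to each other, by a method that no source used here states. No scanner files or detection calls were used.

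After 64 control probe sets were left out, 45037 were fitted with limma 3.58.1 in R 4.3.3 (lmFit, eBayes with an intensity trend; shPhf19 minus shVector, two-sided, Benjamini-Hochberg over all probe sets, threshold 0.05). SE is the moderated standard error and intervals are 95%. Residual degrees of freedom were 2 (median 6.51 after moderation), and the 4 arrays limit precision. An exact permutation test of 2 against 2 arrays cannot go below 0.333 and was not used. The annotation paired 34945 probe sets with 1 symbol, 932 with several and 9160 with none, and all 20 member probe sets matched RefSeq by gene number and symbol. Alternatives were no trend, quantile normalization, median centring, filters on the dimmest 25% and 50% of probe sets, 1 mean per gene, replicate blocks and each array left out.

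Members and lists were chosen with earlier results of these data known. Named were all members and, per list, up to 4 called genes in each direction by size of change or, with none called, the 2 with the smallest p, plus Phf19 and the 5 genes most like the most changed member. The groups share replicate numbers; deviations of same-numbered arrays correlated at -0.197, so the reported fit has no replicate block.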

Additional observations from a re-analysis of the deposited data

How the results depend on the processing

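Leaving out 1 array at a time gave 0 called member probe sets, 0 member genes and 0 of all probe sets in each direction (limma; 2539 to 6942 probe sets at an unadjusted p under 0.05), and Fetub ran from -1.61 to -1.21; a group's lone array was then assumed to vary like the other group. A fit with the replicate number as a block (replicate block) called 0 members and 0 of all probe sets. It had 3890 at an unadjusted p under 0.05 and left Fetub at -1.41 (limma adjusted p = 0.203). With 4 arrays the block also leaves fewer residual degrees of freedom than the 2 of the reported fit. Crossed replicate numbers as a block, added after seeing the data, called 1 member probe set and 1 member gene higher (Apoe) and 596 of all probe sets. Without an intensity trend 151 probe sets were lower and 229 higher, against 262 and 374. The mean of a gene's probe sets called 1 member gene higher, again Apoe. Fetub kept its call in 7 of 8 settings with all arrays (adjusted p from 0.0065 to 0.203), the exception being the replicate block. These 7 include the crossed numbers added after seeing the data, where Fetub had a limma adjusted p of 0.0482. Apoe was above 0 in all 12 settings, at 0.32 to 0.47, with adjusted p from 0.0416 to 0.827 when the crossed numbers are set aside. The other 7 genes were called in 0 of 78 values, and 7 of these had the opposite sign: Ttr at 0.000705 with median centring and from -0.13 to 0.12 without 1 array, Apob at 0.033 by the mean of its probe sets and from -0.158 to 0.0746 without 1 array, Apoa2 from -0.33 to 0.25 and Apoc2 from -0.155 to 0.0851 without 1 array. The cause was not tested. Of the 20 member probe sets 15 lay below the array median on all 4 arrays, and without detection calls their distance from background was not measured.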
